A study of Mus musculus with 56 samples.

Results

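Lachnospiraceae were followed as a family, as genera and as single amplicon sequence variants (ASVs, the distinct 16S sequences of the table) in the gut contents of MC4R knockout (KO) and wild-type (WT) mice. Every ASV that the Greengenes assignment placed in the family Lachnospiraceae was taken, which gave 204 of the 938 ASVs. The V3-V4 region of the 16S rRNA gene of bacteria was read in 28 male mice, once from the contents of the small intestine (SI) and once from those of the large intestine (LI), which gave 56 libraries. The groups were WT mice on a normal diet (WT-ND, n = 6), WT mice on a Western diet (WT-WD, n = 6), MC4R KO mice on the normal diet (KO-ND, n = 8) and MC4R KO mice on the Western diet (KO-WD, n = 8), which ate these diets for 12 weeks, starting at an age of 10 weeks. MC4R is a receptor through which the hypothalamus restrains food intake, and mice that lack it overeat and grow obese. The WT mice were purchased C57BL/6J animals and the KO mice a separate line, so genotype and line cannot be told apart. By the study's account all of them were bred and kept under the same pathogen-free conditions, and they were housed 1 to a cage in the same room. Libraries held 22550 to 35236 counts (median 29721), and 3 counts in 1 library corresponded to a share of 0.00851% to 0.0133%.

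Lachnospiraceae are strictly anaerobic Firmicutes of the order Clostridiales that ferment plant polysaccharides and host glycans in the gut. Several of their genera, among them Roseburia, Coprococcus and Butyrivibrio, form butyrate, the short-chain fatty acid that colonocytes use as fuel. [Ruminococcus] is written in brackets because this group carries the genus name although it belongs to Lachnospiraceae; its species gnavus is known from the human gut as a degrader of mucin. Dorea is known from the human gut as a fermenter that forms gas and formate and not butyrate.

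Of the 204 ASVs, 152 had no genus name, 33 were [Ruminococcus], 11 Coprococcus, 4 Roseburia, 3 Dorea and 1 Butyrivibrio. The 33 [Ruminococcus] ASVs were all assigned to the species gnavus. The only Butyrivibrio ASV and 1 Roseburia ASV were among 8 members without a count in any library, so 196 members were measured. The family was split over many rare variants. The 18 most abundant ASVs made up 50% of its mean share and the 75 most abundant made up 90%. The median ASV was found in 3 of 28 mice, 69 ASVs were found in 1 mouse only, and 14 were found in 14 mice or more. No ASV was found in all mice. The most widespread, [Ruminococcus] ASV_052 and the unclassified ASV_040 and ASV_154, were each found in 20 mice. One strain can carry several differing 16S copies, so ASVs are not independent members.

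In the SI, the Lachnospiraceae share of the library was highest in WT-WD and lowest in KO-WD mice. Shares are parts of a fixed total, so fewer Lachnospiraceae and more of other bacteria cannot be told apart. In WT-ND mice the lowest, median and highest shares were 0.410%, 3.19% and 6.09%. In WT-WD mice they were 3.11%, 6.09% and 14.03%. In KO-ND mice they were 0.0218%, 0.195% and 5.11%. The top value came from KO-ND replicate 5, the next was 1.78%, and 5 of the 8 libraries, at up to 0.230%, lay below the lowest WT-ND library. In KO-WD mice they were 0%, 0.0539% and 2.05%. The 8 KO-WD libraries lay below all 6 WT-WD libraries, whereas every other pair of SI groups overlapped.

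**Figure D1:**
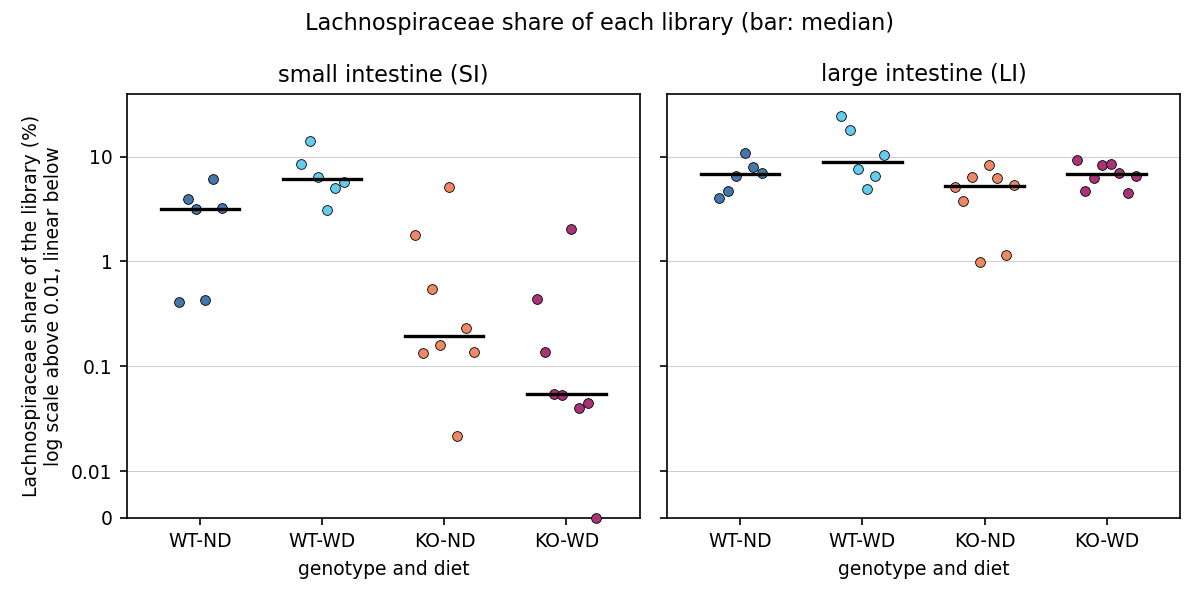
Lachnospiraceae share of each library in percent, by group, in the SI (left) and LI (right). Each point is 1 library, bars are medians, and the axis is logarithmic above 0.01% and linear below; SI medians run from 0.0539% (KO-WD) to 6.09% (WT-WD), while LI medians lie between 5.21% and 8.94%.

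The mean SI share was 7.15% ± 3.80 (SD, n = 6) in WT-WD and 0.352% ± 0.699 (n = 8) in KO-WD mice. The family was lower in KO-WD than in WT-WD mice by edgeR's quasi-likelihood test (log2 fold change -4.34 ± 1.21 SE, adjusted p = 0.00303), a comparison in which 55.6% of 18 families passed and 44.4% were lower. Against WT-ND mice, whose mean was 2.87% ± 2.17, the KO-WD share had a log2 fold change of -3.02 ± 1.38 and did not pass (adjusted p = 0.0737, where 33.3% of 15 families passed). That comparison passed with DESeq2 (-2.77, adjusted p = 0.00803), without a filter on low values (adjusted p = 0.0395) and when the 4 groups shared a fit (adjusted p = 0.0415). It passed by ranks too (exact rank-sum test, adjusted p = 0.0240), where 5 of 15 families passed. It also passed without KO-WD replicate 5, the KO-WD library with the highest share (-4.70, adjusted p = 0.0127), and without WT-ND replicate 4 (adjusted p = 0.0461). It did not pass with TMM factors, with the replicate number as a block or without any other single library.

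The remaining SI comparisons of the family did not pass edgeR's test. The Western diet gave a log2 fold change of 1.32 ± 0.75 in WT mice (adjusted p = 0.294) and -1.53 ± 1.58 in KO mice (adjusted p = 0.441). The test of the difference between these diet effects gave -2.84 ± 1.72 (adjusted p = 0.735). In these tests, and in that of KO-ND against WT-ND, 0% of families passed. KO-ND mice, with a mean of 1.01% ± 1.75, had a log2 fold change of -1.50 ± 1.17 against WT-ND mice (adjusted p = 0.335), and this value was 0.52 with TMM factors, so its direction depended on the scaling. The comparisons share groups, so their values are not independent of each other.

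In the LI, the family shares of the 4 groups overlapped. In WT-ND mice the lowest, median and highest shares were 4.01%, 6.82% and 10.8%. In WT-WD mice they were 4.96%, 8.94% and 24.2%, the top value coming from replicate 1. In KO-ND mice they were 0.980%, 5.21% and 8.32%, and replicates 4 and 7 (0.980% and 1.16%) lay apart from the next lowest, 3.79%. In KO-WD mice they were 4.52%, 6.77% and 9.20%, the narrowest spread of the 4 LI groups. Every pair of groups overlapped, and none of the 5 pairwise comparisons passed edgeR's test at family rank, where 9.09% (WT-WD against WT-ND), 0% (KO-WD against KO-ND), 32.1% (KO-ND against WT-ND), 40.7% (KO-WD against WT-WD) and 28% (KO-WD against WT-ND) of families passed.

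The LI means were 6.85% ± 2.45 in WT-ND, 11.9% ± 7.52 in WT-WD, 4.65% ± 2.56 in KO-ND and 6.86% ± 1.70 in KO-WD mice. KO-WD against WT-ND mice gave a log2 fold change of 0.00 ± 0.34 (adjusted p = 0.998). The largest LI values were -0.80 ± 0.38 for KO-WD against WT-WD (adjusted p = 0.108) and 0.80 for WT-WD against WT-ND (adjusted p = 0.207). KO-ND against WT-ND gave -0.56 ± 0.50 (adjusted p = 0.410), and DESeq2, the tool that differed, gave -1.40 (adjusted p = 0.00159). The test of the difference between the diet effects of the genotypes gave -0.24 ± 0.66 in the LI (adjusted p = 1.00, 3.45% of 29 families passing).

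Within a mouse, the LI held the larger Lachnospiraceae share in 28 of 28 mice. Of all families tested, 50% (WT-ND), 44% (WT-WD), 42.3% (KO-ND) and 23.1% (KO-WD) differed in 1 direction in every mouse of the group. The Lachnospiraceae share was higher in the LI by 3.98 ± 3.35 percentage points in WT-ND, 4.75 ± 5.49 in WT-WD, 3.64 ± 2.04 in KO-ND and 6.51 ± 1.51 in KO-WD mice. An exact sign-flip permutation test of these differences gave p = 0.0312 in each WT group and 0.00781 in each KO group, the smallest p that 6 and 8 mice allow. Adjusted over all families tested, these were 0.0625, 0.0710, 0.0185 and 0.0271, where 0%, 0%, 53.8% and 65.4% of families passed. In edgeR's test, with the mouse as a block, the log2 fold change of LI against SI was 6.28 ± 0.97 in KO-WD (adjusted p = 2.16e-05) and 3.43 ± 0.91 in KO-ND mice (adjusted p = 0.00280), where 73.1% of families passed in each and 57.7% and 65.4% were higher in the LI. It was 1.68 ± 0.70 in WT-ND (adjusted p = 0.0931) and 0.66 in WT-WD mice (adjusted p = 0.102), where 30% and 64% of families passed. The KO-ND value did not pass without the block (2.20, adjusted p = 0.0634). The difference between sites was itself larger in KO-WD than in WT-WD mice by 5.62 (adjusted p = 2.41e-08), a test in which 9.68% of 31 families passed. It was larger in KO-WD than in WT-ND mice by 4.60 (adjusted p = 0.00855, 13.3% of 30 families passing), and this call was lost without WT-ND replicate 5 (4.29, adjusted p = 0.0522). The corresponding values for KO-WD against KO-ND (2.86, adjusted p = 0.158, but 3.34 and 0.0304 without KO-ND replicate 6), KO-ND against WT-ND (1.75, adjusted p = 0.446) and WT-WD against WT-ND (-1.02, adjusted p = 0.699) did not pass.

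Among the genera, the butyrate producers were rare and found mainly in the LI. Coprococcus was found in 6 of 6 WT-ND, 6 of 6 WT-WD, 7 of 8 KO-ND and 7 of 8 KO-WD libraries of the LI, with medians of 0.234%, 0.485%, 0.114% and 0.178%. In the SI it was found in 2 of 6, 5 of 6, 1 of 8 and 0 of 8 libraries in the same order. The genus was thus detected in the SI of most WT-WD mice and in that of no KO-WD mouse. It entered the SI test of these groups only through WT-WD libraries, so its direction there was fixed in advance. Its SI mean in WT-WD mice, 0.0539% ± 0.0367, was at least 37.1-fold above the share that 3 counts in the pooled KO-WD libraries allow (edgeR's adjusted p = 0.00145). Such limits and counting intervals cover counting error only, since PCR reads carry no molecular identifiers. In the LI, Coprococcus against WT-ND had a log2 fold change of 1.33 ± 0.57 in WT-WD mice (adjusted p = 0.166), with overlapping groups.

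Roseburia was found in 2 of 6 WT-ND, 6 of 6 WT-WD, 2 of 8 KO-ND and 6 of 8 KO-WD libraries of the LI. Its highest share was 0.179% in WT-ND, 1.15% in WT-WD, 0.0841% in KO-ND and 0.704% in KO-WD mice. More Western diet than normal diet mice therefore held the genus in the LI in both genotypes, but its share did not pass edgeR's test in WT mice (log2 fold change 2.61 ± 1.66, adjusted p = 0.355) or in KO mice (3.20 ± 1.55, adjusted p = 0.409). In the SI it was seen in 2 WT-WD libraries, at up to 0.0965%, and in none of the others.

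[Ruminococcus], whose species gnavus is known in the human gut to degrade mucin, was the leading named genus at both sites. No function was measured here. In the SI, its lowest, median and highest shares were 0.0759%, 1.80% and 4.40% in WT-ND mice and 2.37%, 3.90% and 7.17% in WT-WD mice. They were 0%, 0.147% and 3.66% in KO-ND mice and 0%, 0.0424% and 1.11% in KO-WD mice. The 8 KO-WD libraries lay below the 6 WT-WD libraries. [Ruminococcus] was lower in KO-WD than in WT-WD mice (log2 fold change -4.31 ± 1.42, adjusted p = 0.0144 by edgeR). In the LI its means were 1.26% ± 0.429 in WT-ND, 3.12% ± 1.87 in WT-WD, 0.917% ± 0.614 in KO-ND and 1.54% ± 0.489 in KO-WD mice, and KO-WD against WT-WD gave -1.02 ± 0.46 (adjusted p = 0.0968).

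Dorea, known in the human gut as a gas-forming fermenter, was the scarcest measured genus in the LI. Its SI mean, however, exceeded those of Coprococcus and Roseburia in the 3 groups that held it. In the SI it was found in 4 of 6 WT-ND, 5 of 6 WT-WD, 2 of 8 KO-ND and 0 of 8 KO-WD libraries. The WT means were 0.0604% ± 0.0493 and 0.0799% ± 0.0675. They were at least 41.6-fold (WT-ND) and 55.0-fold (WT-WD) above the share that 3 counts in the pooled KO-WD libraries allow, with edgeR's adjusted p = 0.00527 and 0.00145. Dorea entered these tests only through WT libraries, so its direction was fixed in advance. In the LI it was found in 2 of 6, 3 of 6, 1 of 8 and 3 of 8 libraries, at most at 0.145%.

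ASVs without a genus name formed most of the family in the LI. Their LI medians were 4.95% in WT-ND, 5.82% in WT-WD, 4.03% in KO-ND and 4.70% in KO-WD mice. Their SI medians were 1.13%, 2.11%, 0.0893% and 0.0231% in the same order. In the SI they were lower in KO-WD than in WT-WD mice (log2 fold change -4.30 ± 1.65, adjusted p = 0.0270), a call that was lost without WT-WD replicate 1 (-4.25, adjusted p = 0.0527) or replicate 2 (-3.85, adjusted p = 0.0635). All 4 genera tested in that comparison were thus lower in KO-WD mice, where 58.6% of the 29 genera in the table passed and 51.7% were lower. Of the 4, Coprococcus and Dorea had no count in the KO-WD libraries. They entered the test only through WT-WD libraries, so their direction was fixed in advance. For KO-WD against WT-ND mice in the SI, 1 of 3 members (Dorea) was called, where 36.4% of 22 genera passed and 27.3% were lower. Dorea entered that test only through WT-ND libraries. [Ruminococcus] had -3.11 ± 1.58 (edgeR's adjusted p = 0.103) and the unclassified ASVs -2.79 ± 1.66 (adjusted p = 0.158). Both were called by the exact rank-sum test (adjusted p = 0.0385 and 0.0110), which called 16 of all 22 genera there. Without KO-WD replicate 5, edgeR called both as well (-4.46, adjusted p = 0.0269, and -5.12, adjusted p = 0.0196). No Lachnospiraceae genus passed edgeR's test in the other 3 pairwise SI comparisons, in which 0% to 13% of genera passed and no member was called by ranks or had an unadjusted p under 0.05. The genotype by diet interaction called 0 of 4 genera in the SI and 0 of 5 in the LI, and 0% of all genera, with 2 and 0 at an unadjusted p under 0.05.

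**Figure D2:**
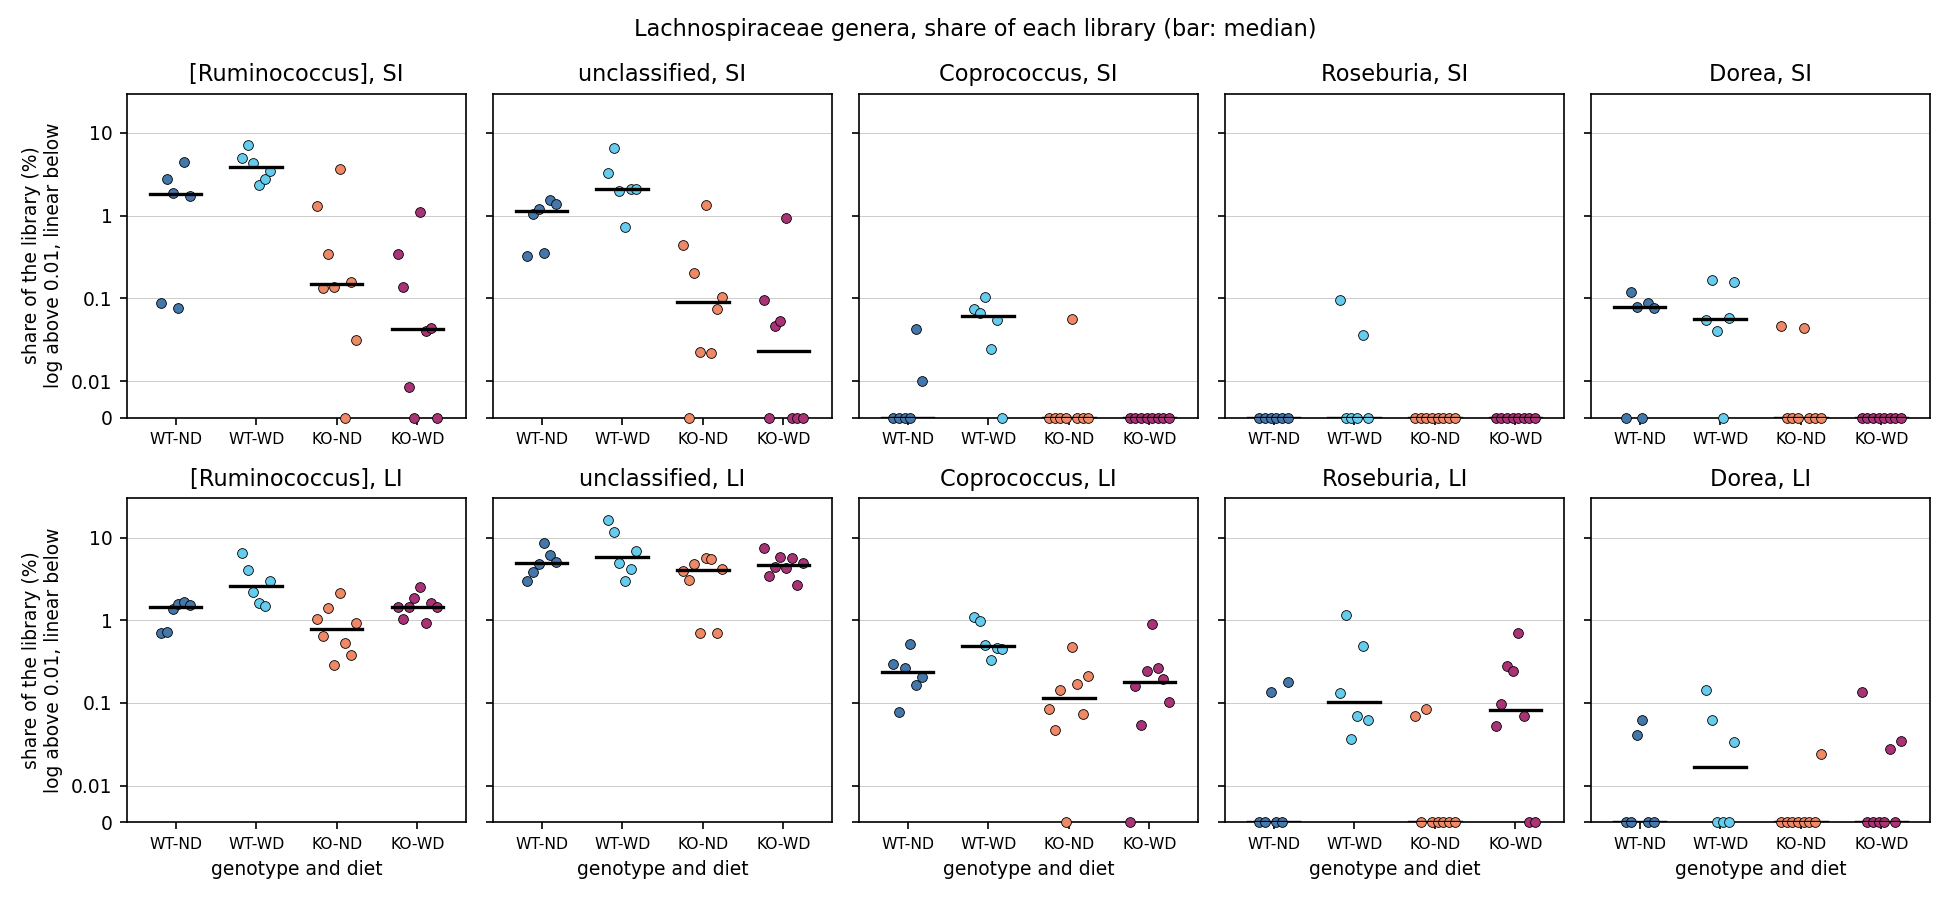
Share of each library in percent held by each Lachnospiraceae genus (columns) in the SI (top) and LI (bottom), by group, on an axis that is logarithmic above 0.01% and linear below. Points are libraries and bars medians; in the SI of KO-WD mice Coprococcus, Roseburia and Dorea have no counts in 8 of 8 libraries.

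No Lachnospiraceae genus passed edgeR's test in the LI for any of the 5 pairwise comparisons, where 2 of 5 genera had an unadjusted p under 0.05 for WT-WD against WT-ND, 1 of 5 for KO-WD against WT-WD and none in the other 3. The exact rank-sum test called 1, Coprococcus, which was lower in KO-WD than in WT-WD mice (adjusted p = 0.0328, against 0.272 by edgeR). In that comparison it called 17 of all 41 genera. Over the whole table, 2.7% of genera passed for WT-WD against WT-ND, 0% for KO-WD against KO-ND, 29.3% for KO-ND against WT-ND, 34.1% for KO-WD against WT-WD and 25.6% for KO-WD against WT-ND. With DESeq2, Coprococcus (-1.32, adjusted p = 0.0324), [Ruminococcus] (-0.84, adjusted p = 0.00716) and the unclassified ASVs (-0.97, adjusted p = 0.00661) were lower in KO-ND than in WT-ND mice in the LI.

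Between the sites, the unclassified ASVs and Coprococcus were higher in the LI than in the SI in all 4 groups. The log2 fold changes of the unclassified ASVs were 2.55 ± 0.61 in WT-ND, 1.52 ± 0.40 in WT-WD, 4.86 ± 1.09 in KO-ND and 8.27 ± 1.40 in KO-WD mice (edgeR's adjusted p = 0.00785, 0.00792, 0.000106 and 0.000101). For Coprococcus they were 6.51, 6.48 and 3.89 in KO-ND, WT-ND and WT-WD mice (adjusted p = 0.000103, 0.0165 and 0.0140), and in KO-WD mice the LI mean was at least 166-fold above the SI limit (adjusted p = 0.00226). Roseburia was higher in the LI of the Western diet groups, with adjusted p = 0.0177 in WT-WD and 0.00367 in KO-WD mice. Coprococcus and Roseburia had no count in the SI of KO-WD mice, so their direction there was fixed in advance. In WT-WD mice the calls of the unclassified ASVs and of Roseburia were lost without the mouse as a block (adjusted p = 0.0884 and 0.0906). In these comparisons 2 of 4, 3 of 5, 2 of 3 and 4 of 4 Lachnospiraceae genera were called higher in the LI, where 41.9%, 55.3%, 72.2% and 73% of all genera passed and 38.7%, 39.5%, 61.1% and 59.5% were higher. [Ruminococcus] differed between the sites in KO-WD mice (5.01 ± 1.35, adjusted p = 0.00367) and had 1.90 in KO-ND, 0.31 in WT-ND and -0.53 in WT-WD mice (adjusted p = 0.136, 0.798 and 0.314). In the WT groups, the sign of this value changed with TMM factors.

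The difference between sites was larger in KO-WD than in WT-WD mice for 3 of 5 genera (10.9% of 46 genera over the table passed). These were the unclassified ASVs (by 6.70 ± 1.23, adjusted p = 3.48e-06), [Ruminococcus] (by 5.51 ± 1.47, adjusted p = 0.00305) and Dorea (7.35 ± 2.62, adjusted p = 0.0477), the last with no count in the KO-WD SI libraries, so that its size is not determined. Against WT-ND mice, the unclassified ASVs passed (by 5.71 ± 1.52, adjusted p = 0.0120, 1 of 5 members against 7.14% of 42 genera).

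The make-up of the family also differed between the sites. [Ruminococcus] made up 49.1% ± 24.01 of the Lachnospiraceae counts in the SI and 18.5% ± 3.10 in the LI of WT-ND mice. In WT-WD mice it made up 61.5% ± 8.92 and 27.03% ± 3.94. In KO-ND mice with at least 30 family counts at both sites (n = 7) it made up 69.1% ± 23.96 and 23.4% ± 5.90. The SI value was the higher in 6 of 6, 6 of 6 and 7 of 7 mice (exact sign-flip permutation test, two-sided, adjusted p = 0.0417 in each). Only 3 KO-WD mice had 30 family counts in the SI. In them the parts were 77.5% ± 22.8 and 22.4% ± 6.99, higher in the SI in 3 of 3 mice, and 0.25 is the smallest p that an exact test of 3 mice allows. With at least 100 family counts required, the same WT mice and values entered (exact p = 0.0312 in each WT group), and only 3 KO-ND mice were left, so that adjustment over the groups gave 0.0625 for WT. With 10 family counts required, the SI value was the higher in 5 of 7 KO-WD mice (exact sign-flip permutation test, adjusted p = 0.0781).

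**Figure D3:**
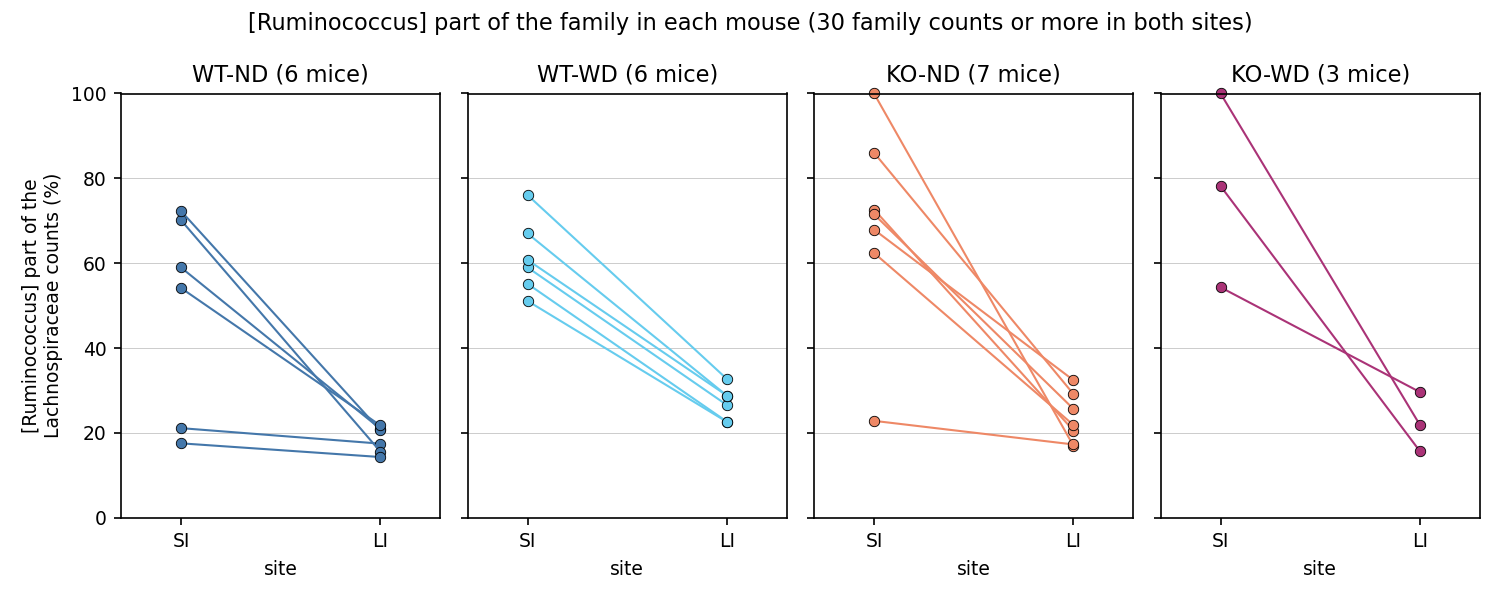
[Ruminococcus] part of the Lachnospiraceae counts in percent, in the SI and LI of each mouse with at least 30 family counts at both sites. Each line joins the 2 libraries of 1 mouse, and in all of the 22 mice shown the SI value is the higher.

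Fewer Lachnospiraceae ASVs were found in the SI of KO-WD mice than in that of WT mice. At an equal depth of 22550 counts, the mean number of ASVs in the SI was 14.5 ± 8.16 in WT-ND, 24.7 ± 9.09 in WT-WD, 7.00 ± 8.78 in KO-ND and 2.75 ± 3.33 in KO-WD mice. The lowest and highest numbers were 3 and 20 in WT-ND, 14 and 40 in WT-WD, 1 and 25 in KO-ND and 0 and 9 in KO-WD mice. KO-WD mice had fewer than WT-WD mice (two-sided exact rank-sum test, adjusted p = 0.00666) and than WT-ND mice (adjusted p = 0.0333), but the second call was lost when any of 10 of the 14 libraries was left out, such as WT-ND replicate 2 (adjusted p = 0.0777) or KO-WD replicate 3 (adjusted p = 0.0525). In the LI the means were 34.0 ± 7.65, 37.6 ± 13.2, 24.1 ± 9.20 and 26.8 ± 3.28 ASVs in the same order of groups, and the 5 LI comparisons had adjusted p of 0.141 to 0.939. Lachnospiraceae formed 36.5% ± 3.44 of the ASVs found in the SI of WT-WD mice and 8.34% ± 7.55 in that of KO-WD mice. The depth was equal over the library, not over the family. In the SI the family held 0 to 589 counts per KO-WD library and 882 to 4460 per WT-WD library. Fewer ASVs and a lower family share therefore cannot be told apart. The mean number of all ASVs in the SI was 51.3 in WT-ND, 66.6 in WT-WD, 38.1 in KO-ND and 27.1 in KO-WD mice.

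Some variants were found in mice of 1 genotype only, as were many ASVs of other families. Of the 196 measured ASVs, 72 were found in WT mice only, 49 in KO mice only and 75 in both (36.7%, 25% and 38.3%). Of the 668 ASVs outside the family, these parts were 33.4%, 44.9% and 21.7%. Rare ASVs weigh heavily in these numbers, and among the 104 ASVs with at least 100 counts in all, 26 were found in WT only, 15 in KO only and 63 in both (25%, 14.4% and 60.6%, against 22%, 38.1% and 39.9% of other ASVs). Fisher's exact test over mice, with the diets pooled and adjustment over the 864 ASVs with counts, called 16 of 196 members, against 10.5% of all 864 ASVs, so the members stood near the table as a whole. Of these, 11 were found in more WT mice (5.44% over the table) and 5 in more KO mice (5.09%). The same test of diet called 0 members and 0 of 864 ASVs, with Roseburia ASV_102 at the lowest p (2 of 14 ND and 12 of 14 WD mice, exact p = 0.000423, adjusted p = 0.250).

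**Figure D4:**
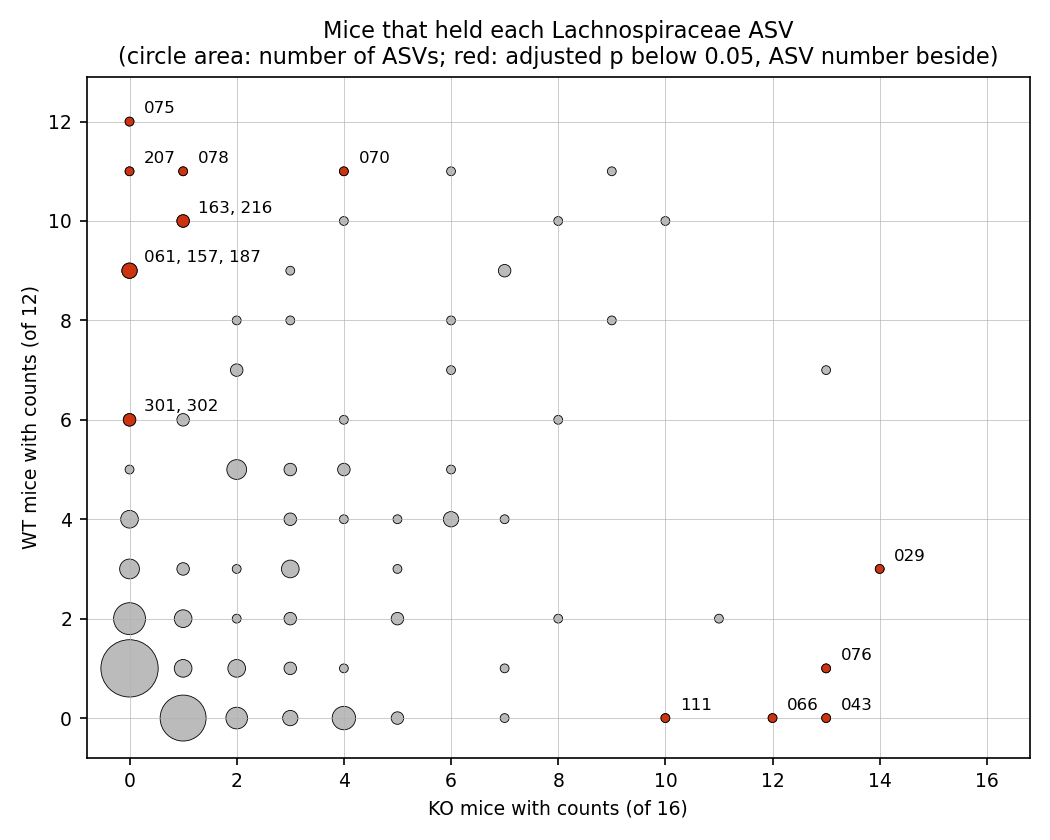
Number of WT mice (of 12) and of KO mice (of 16) that held each Lachnospiraceae ASV at either site. Circle area gives the number of ASVs at that position, and red circles with ASV numbers passed Fisher's exact test over mice (adjusted p below 0.05, 16 ASVs).

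The ASVs of WT mice were led by the unclassified ASV_075, which was found in 12 of 12 WT and 0 of 16 KO mice (Fisher's exact adjusted p = 5.68e-06). In the SI its shares ran from 0% to 0.485% (median 0.265%) in WT-ND and from 0.0708% to 1.02% in WT-WD mice. In the LI they ran from 0.0191% to 0.578% in WT-ND and from 0.123% to 0.255% in WT-WD mice. It had no count in the 32 KO libraries. The unclassified ASV_207 was found in 11 of 12 WT and 0 of 16 KO mice, and ASV_078 in 11 of 12 and 1 of 16. [Ruminococcus] ASV_061 and the unclassified ASV_157 and ASV_187 were each found in 9 of 12 WT and 0 of 16 KO mice (adjusted p = 0.000562). Dorea ASV_216, which made up most of the counts of its genus, was found in 10 of 12 WT and 1 of 16 KO mice (adjusted p = 0.000826), as was the unclassified ASV_163. [Ruminococcus] ASV_070 was found in 11 of 12 and 4 of 16 mice, and the unclassified ASV_301 and ASV_302 in 6 of 12 and 0 of 16.

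The ASVs of KO mice were fewer. The unclassified ASV_043 was found in 13 of 16 KO and 0 of 12 WT mice (Fisher's exact adjusted p = 0.000309). In the LI its median share was 0.398% in KO-ND mice, where it reached 1.40%, and 0.535% in KO-WD mice, where it reached 1.48%, with no count in the 24 WT libraries. ASV_066 was found in 12 of 16 KO and 0 of 12 WT mice, ASV_111 in 10 of 16 and 0 of 12, and ASV_076 in 13 of 16 and 1 of 12, the 3 of them unclassified. [Ruminococcus] ASV_029 was found in 14 of 16 KO mice and in 3 of 12 WT mice, the latter all on the Western diet (adjusted p = 0.0169). In the LI it reached 1.24% in KO-ND, 0.996% in KO-WD and 1.13% in WT-WD mice, and had no count in the WT-ND libraries. The genus [Ruminococcus] thus held variants found in more WT mice (ASV_061, ASV_070) and one found in more KO mice (ASV_029).

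**Figure D5:**
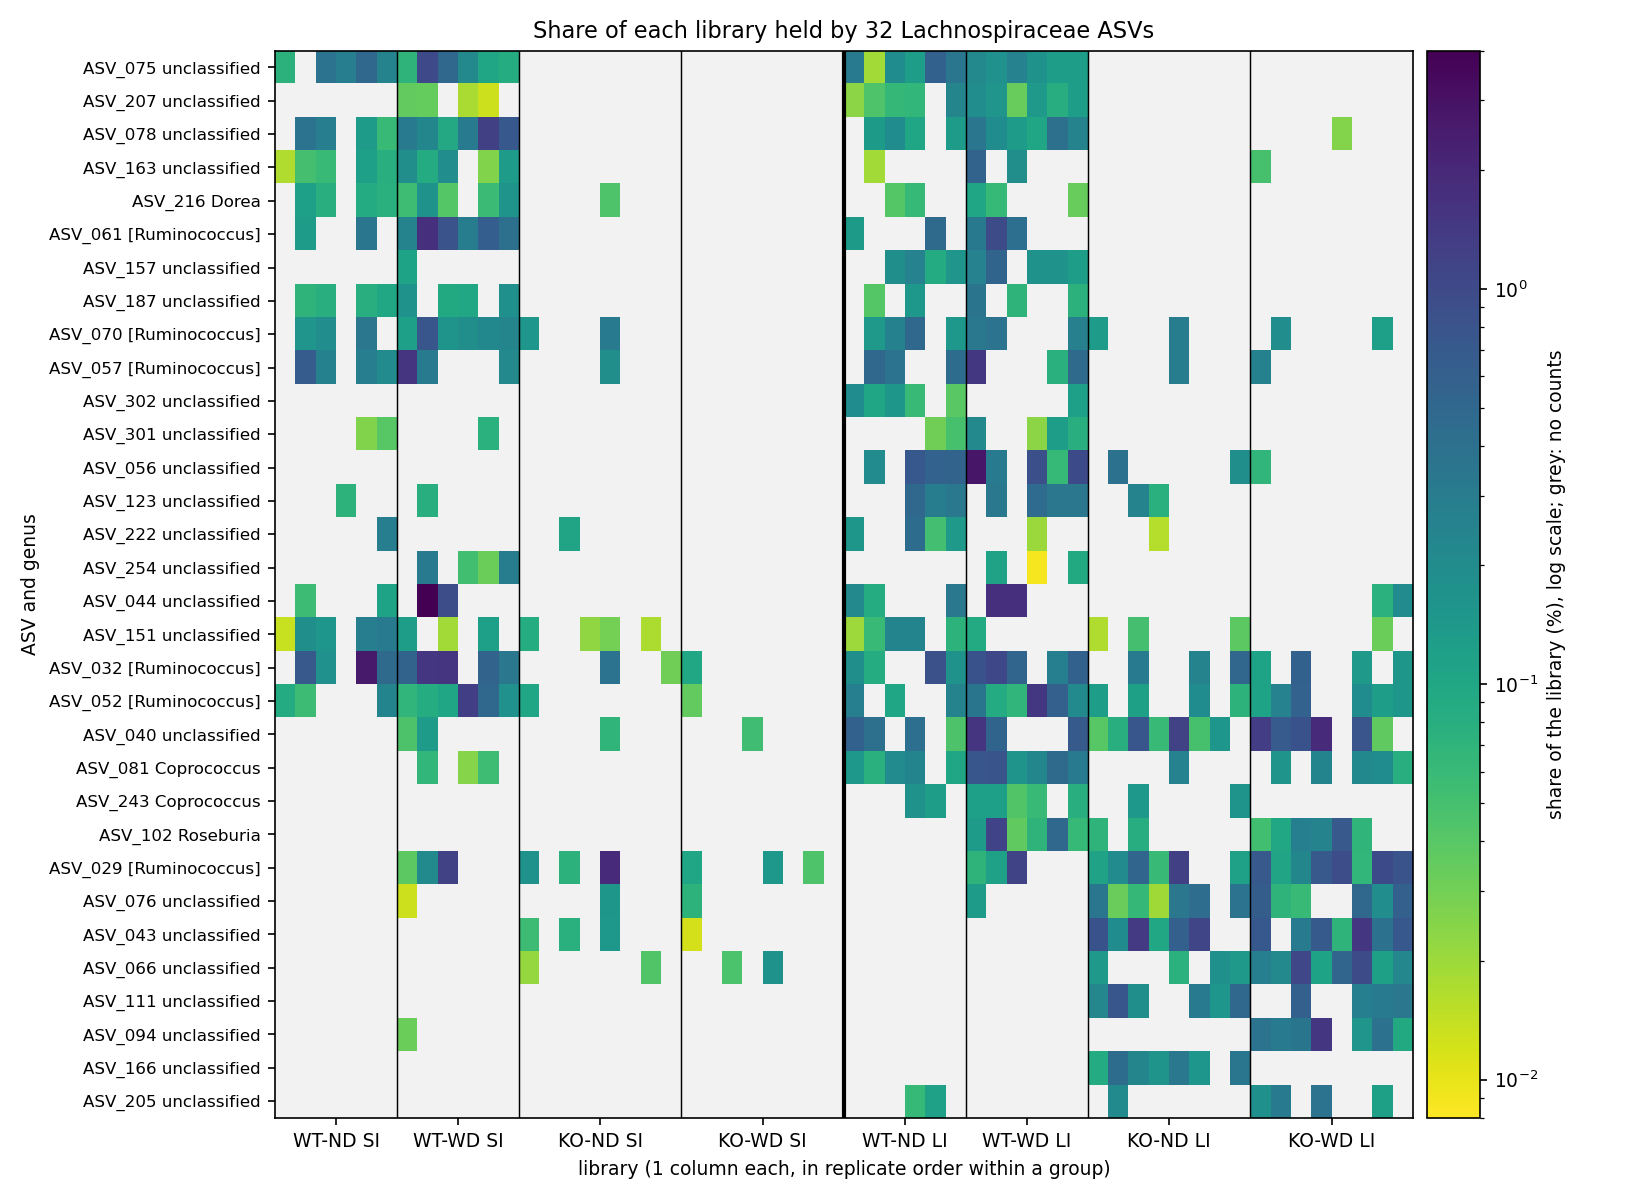
Share of each library, as colour on a log scale, for 32 Lachnospiraceae ASVs (rows) in the 56 libraries (columns, by site and group); grey means no counts. The upper rows, such as ASV_075, have counts in WT libraries, and rows such as ASV_043 and ASV_066 have counts in KO libraries.

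In tests of shares between KO and WT mice, ASVs of both directions were called in the LI. Of the 3 comparisons given, KO-WD against WT-ND differs in genotype and diet together. An ASV was tested when its mean share was at least 0.01% and it had counts in at least 4 libraries of the fit, and one that passes through the group where it is high tends to differ. For KO-ND against WT-ND in the LI, edgeR's test called 13 of 40 members, 7 higher and 6 lower, against 52.2% of the 182 ASVs tested (30.8% higher, 21.4% lower). For KO-WD against WT-WD it called 14 of 44, 5 higher and 9 lower, against 45.1% of 182 (27.5% higher, 17.6% lower). For KO-WD against WT-ND it called 15 of 48, 7 higher and 8 lower, against 47.9% of 188 (28.7% higher, 19.1% lower). In these 3 comparisons the median log2 fold change was -1.17, -1.46 and -0.70 over the members and -0.42, -0.27 and 0.04 over all ASVs tested. The exact rank-sum test called 12, 14 and 12 members, where it called 79 of 182, 73 of 182 and 70 of 188 ASVs. In each of the 3, a smaller share of the members than of all ASVs was called.

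Among the called ASVs, those with the largest LI differences had no count in 1 of the 2 groups compared, and are given as bounds. Of those named here, ASV_029, ASV_094 and ASV_123 were found in mice of both genotypes. For KO-ND against WT-ND mice, ASV_043 was at least 318-fold, ASV_029 at least 169-fold, ASV_111 at least 158-fold and ASV_166 at least 133-fold higher in KO-ND, and ASV_075 at least 209-fold lower (edgeR's adjusted p = 0.000306 to 0.00414). Each bound sets the mean share of 1 group against 3 counts pooled over the libraries of the other. For KO-WD against WT-WD mice, ASV_043 was at least 351-fold, ASV_066 at least 278-fold and ASV_094 at least 255-fold higher, and ASV_123 at least 189-fold and ASV_157 at least 160.0-fold lower (adjusted p = 0.00162 to 0.00435). For KO-WD against WT-ND mice, ASV_029 was at least 341-fold, ASV_043 at least 329-fold, ASV_066 at least 260.4-fold and ASV_094 at least 239-fold higher, and ASV_075 at least 203-fold lower (adjusted p = 0.000287 to 0.00145). The KO-WD and the WT-ND libraries each enter 2 of these comparisons.

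In the SI, the called ASVs were lower in KO mice. Of the members tested, 8 of 13 (KO-WD against WT-WD), 7 of 11 (KO-WD against WT-ND) and 4 of 14 (KO-ND against WT-ND) had no count in the KO group. These passed the filter only through WT libraries, so their direction was fixed in advance. Their folds are against the pooled limit of 3 counts. For KO-WD against WT-WD edgeR called 10 of 13 members, all lower, where 61.5% of 52 ASVs passed and 50% were lower. [Ruminococcus] ASV_061 was at least 469.6-fold lower (shares of 0.251% to 1.72% in WT-WD mice), the unclassified ASV_078 at least 329-fold and ASV_075 at least 228-fold lower. [Ruminococcus] ASV_070 was at least 193-fold and the unclassified ASV_254 at least 79.4-fold lower. The adjusted p of the 5 ran from 0.000473 to 0.00484. For KO-WD against WT-ND it called 8 of 11 members, all lower, where 54.5% of 44 ASVs passed and 43.2% were lower. There ASV_075 was at least 168-fold, [Ruminococcus] ASV_057 at least 160.3-fold, ASV_151 at least 108-fold, ASV_078 at least 97.2-fold and Dorea ASV_216 at least 41.6-fold lower. For KO-ND against WT-ND it called 4 of 14 members, all lower, where 40% of 50 ASVs passed and 26% were lower: ASV_075 (at least 178-fold), ASV_078 (at least 103-fold), ASV_187 (at least 40.4-fold) and ASV_163 (at least 39.5-fold). That count was 2 without WT-ND replicate 2, 3, 5 or 6 and 7 without KO-ND replicate 5, and the count for KO-WD against WT-ND was 3 without WT-ND replicate 5 and 4 without replicate 2, 3 or 6.

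Within a genotype, few ASVs changed with the diet. In WT mice, edgeR called 1 of 47 members in the LI (1.33% of 150 ASVs passed, 0.667% higher) and 0 of 20 in the SI (0% of 66), where 1 member had an unadjusted p under 0.05 and DESeq2 called 1. The LI member was Roseburia ASV_102, a variant of a butyrate-producing genus. Its 6 WT-WD shares were 0.132%, 1.15%, 0.0369%, 0.0702%, 0.487% and 0.0617%, and its 6 WT-ND shares were 0%. It was thus higher on the Western diet, at least 194-fold above the pooled limit of 3 counts (adjusted p = 0.0402), without overlap between the groups. ASV_102 entered this test only through WT-WD libraries, so its direction was fixed in advance. The call was not made by the exact rank-sum test (adjusted p = 0.108), nor without a filter (adjusted p = 0.0606), nor when any of 8 of the 12 libraries was left out (WT-ND replicates 1, 2, 3, 5 and 6 and WT-WD replicates 1, 5 and 6). In KO mice ASV_102 was found in 2 of 8 KO-ND and 6 of 8 KO-WD libraries of the LI.

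In KO mice, edgeR called 2 of 41 members in the LI (2.66% of 188 ASVs passed, 1.6% higher and 1.06% lower) and 0 of 4 in the SI (12.8% of 39), where 1 member had an unadjusted p under 0.05 and the exact rank-sum test called 0. The unclassified ASV_094 had counts in 7 of 8 KO-WD libraries of the LI, up to 1.48% (median 0.336%), and in 0 of 8 KO-ND libraries. Its KO-WD mean was at least 315-fold above the pooled limit of 3 counts (adjusted p = 0.00291). Outside these it was found in 1 WT-WD library of the SI, at 0.0322%. The unclassified ASV_166 had counts in 7 of 8 KO-ND libraries of the LI, up to 0.448% (median 0.200%), and in 0 of 8 KO-WD libraries. Its KO-ND mean was at least 171-fold above the pooled limit of the Western diet group (adjusted p = 0.00526). It had no count in any WT library or in the SI. Both calls were also made by the exact rank-sum test (adjusted p = 0.0329 each), which called 8 of 188 ASVs. Each of the 2 ASVs entered these tests only through the group that held it. Its direction was thus fixed in advance, and the rank test is not separate support.

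The tests of the genotype by diet interaction called 0 of 27 members in the SI and 0 of 76 in the LI, and 0% of all ASVs, with 9 and 12 members at an unadjusted p under 0.05. The tests of whether the difference between sites varied between groups also called 0 members and 0% of ASVs, with 0 to 8 members at an unadjusted p under 0.05.

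Most ASVs were found in the LI. Of the 196, 106 were found in the LI only, 13 in the SI only and 77 at both sites (54.1%, 6.63% and 39.3%, against 62.1%, 9.88% and 28% of the ASVs outside the family). For the [Ruminococcus] ASVs these numbers were 7, 5 and 20 of 32, and for the unclassified ASVs 91, 7 and 49 of 147. In the same mouse, 65.6% to 82.5% of the SI ASVs on average were also found in the LI, whereas 8.67% (KO-WD) to 42.9% (WT-WD) of the LI ASVs were also found in the SI. Between the sites, edgeR called 9 of 32 members in WT-ND (35.8% of ASVs passed), 12 of 42 in WT-WD (44.2%), 10 of 21 in KO-ND (64.8%) and 12 of 19 in KO-WD mice (48.7%). All but 1 were higher in the LI, as were most called ASVs of the whole table. Over all ASVs tested, 34%, 38.3%, 61.5% and 45.2% were called higher in the LI, in the same order of groups. The exception among the members was ASV_163 in WT-ND mice, found in 5 of 6 SI and 1 of 6 LI libraries (log2 fold change -5.40 ± 1.37, adjusted p = 0.0203).

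Among the called ASVs, those with the largest log2 fold changes between sites had no or few counts in the SI. In WT-WD mice they were the unclassified ASV_056 (LI mean at least 513-fold above the SI limit), Roseburia ASV_102 (at least 199-fold), ASV_154 (at least 57.2-fold), Coprococcus ASV_243 (at least 43.9-fold) and ASV_147 (at least 47.0-fold). In WT-ND mice they were ASV_154 (at least 72.9-fold), Coprococcus ASV_081 (at least 77.3-fold), ASV_157 (at least 69.1-fold), ASV_302 (at least 54.7-fold) and ASV_207 (at least 43.6-fold). In KO-ND mice they were ASV_166 (at least 161-fold), ASV_111 (at least 191-fold), ASV_086 (at least 75.6-fold), ASV_076 (log2 fold change 6.91 ± 1.57) and ASV_040 (6.81 ± 1.32). In KO-WD mice they were ASV_094 (at least 274-fold), ASV_043 (8.77 ± 1.05), ASV_040 (8.37 ± 1.25), ASV_102 (at least 124-fold) and ASV_111 (at least 131-fold). The adjusted p of these 20 differences ran from 0.000532 to 0.0455. In WT-ND mice, ASV_056 (at least 206-fold) and ASV_040 (at least 146-fold) had larger bounds but were not called. The calls in WT-ND mice were lost in part without replicate 1, 3 or 6 (adjusted p up to 0.0964), ASV_243 was lost without WT-WD replicate 1 (adjusted p = 0.0523), and in KO-WD mice ASV_094, ASV_102 and ASV_111 were lost without replicate 7, 1 or 7, and 1 (adjusted p up to 0.0522). With no filter on low values, none of the 10 calls named in the WT groups passed.

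The most abundant ASVs included ASV_029 and ASV_043, described above, and variants found in many mice of both genotypes. [Ruminococcus] ASV_032, the most abundant member, was found in 10 of 12 WT and 8 of 16 KO mice. Its SI median was 0.319% in WT-ND, 0.550% in WT-WD and 0% in both KO groups, and in the SI it was lower in KO-WD mice than in WT-WD (adjusted p = 0.0148) and WT-ND mice (adjusted p = 0.0290, but 0.119 with DESeq2 and 0.0805 without WT-ND replicate 5). [Ruminococcus] ASV_052 was found in 10 of 12 WT and 10 of 16 KO mice, and its LI share reached 1.46% in WT-WD and 0.562% in KO-WD mice. The unclassified ASV_040 was found in 7 of 12 WT and 13 of 16 KO mice, with LI medians of 0.225% in WT-ND, 0.270% in WT-WD, 0.0705% in KO-ND and 0.721% in KO-WD mice.

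The unclassified ASV_044 drew its rank mainly from 2 mice, reaching 3.92% and 0.914% in the SI of WT-WD replicates 2 and 3, and 1.70% and 1.67% in their LI. Coprococcus ASV_081 was found in the LI of 5 of 6 WT-ND, 6 of 6 WT-WD, 1 of 8 KO-ND and 5 of 8 KO-WD mice, at up to 0.801%. Coprococcus ASV_243 was found in the LI of 2, 5, 2 and 0 mice in the same order. The other 2 Dorea ASVs, ASV_465 and ASV_541, were found in 3 and 4 libraries, at no more than 0.105% and 0.0462%.

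The other Clostridiales, with 407 ASVs in 10 family classes, gave a comparison within the order. For KO-WD against WT-WD in the SI, 3 of the 4 tested classes were lower, as the Lachnospiraceae were: Ruminococcaceae, another family of fibre fermenters (log2 fold change -5.38 ± 2.00, adjusted p = 0.0234), [Mogibacteriaceae] (-7.59 ± 1.96, adjusted p = 0.00206) and Clostridiales without a family name (-5.25 ± 1.94, adjusted p = 0.0234). Clostridiaceae had 1.29 ± 0.67 (adjusted p = 0.0993). For KO-WD against WT-ND in the SI, 2 of 3 were lower and Clostridiaceae were higher (3.52 ± 1.02, adjusted p = 0.0133). In the LI, Ruminococcaceae had 0.02 ± 0.53 in the same comparison (adjusted p = 0.998), near the value of Lachnospiraceae, and 1 of 7 classes was lower. In KO-WD mice 5 of 6 classes were higher in the LI than in the SI, with Ruminococcaceae at 9.33 ± 1.17 (adjusted p = 2.43e-06).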

How the data were processed

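Libraries of the V3-V4 region were made from freeze-dried SI and LI contents and sequenced as paired reads. The authors kept reads carrying the primers (FASTX-Toolkit 0.0.14), trimmed them (Sickle 1.33) and joined the pairs (FLASH 1.2.11). DADA2 within QIIME 2 2021.4 then cleaned the sequences and chimeras, and names came from Greengenes 13_8. The values deposited are raw counts per ASV, not normalized. The smallest count above 0 was 2, so ASVs with 1 read in a library do not appear there, and ASVs under about 0.01% of a library go unseen.

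Counts were summed by genus and family. Shares are percent of the library total. Changes were tested with edgeR 4.0.16 (quasi-likelihood, library totals as scaling, R 4.3.3) on the 2 groups compared, over all taxa of a rank that averaged 0.01% or more and had counts in 4 or more libraries of the fit, with Benjamini-Hochberg adjustment within rank and comparison and a threshold of 0.05. The SE is the size of the log2 fold change divided by the square root of F. Sites were compared with the mouse as a block. Replicate numbers of SI and LI libraries were taken as the same mouse: same-numbered pairs were more alike than other pairs of their group (mean similarity 0.585 against 0.473, one-sided permutation p = 1e-05, the smallest that 100000 permutations give). Richness is the mean of 100 random draws of 22550 counts. Exact tests used scipy 1.17.1 in Python 3.11.15. Shares found in groups at 0 were bounded by 3 counts over the pooled libraries. This limit lies below the share of about 0.01% that can go unseen in each library, so the folds given as "at least" are limits of counting only. The edgeR test of 2 groups was tried on data simulated from the WT libraries of the LI, and the exact rank-sum test on normal values. The fits with a block and the SI libraries of KO mice were not simulated.

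The members and lists were chosen with earlier results of these data known. Every genus is named, with the 3 most abundant ASVs of [Ruminococcus], of Dorea, of the unclassified and of the other genera, and the 5 ASVs with the largest change past the threshold in each comparison. Other ASVs named for the mice that held them, the tests of mice per ASV, of the [Ruminococcus] part, of the family share within mice and of the difference between sites, and the alternatives for genera and ASVs were chosen after the data were seen. Alternatives were TMM factors, DESeq2 1.42.0 with poscounts size factors, no filter, all 4 groups in 1 fit, exact rank-sum tests, a block for the replicate number and fits with 1 library less. No ASV sequence was used here. A taxon share is relative, and no measure of bacterial load was used.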

Additional observations from a re-analysis of the deposited data

Results flagged for a closer look

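Of 46 sets of values (1 family or genus share in 1 group and site) examined for a library far from the others, 11 had one. A chance rate of about 1 in 20 would need independent sets. Here the family share is the sum of its genera and some sets are 0 in nearly all libraries, so that rate does not apply. The flagged values came mainly from the same mice. In KO-ND SI replicate 5, the family (5.11%), [Ruminococcus] (3.66%), the unclassified ASVs (1.35%) and the genera other than Dorea and [Ruminococcus] (0.0562%) were far above the other KO-ND libraries. In KO-WD SI replicate 5, the family (2.05%), [Ruminococcus] (1.11%) and the unclassified ASVs (0.935%) were far above the other KO-WD libraries. The genera other than Dorea and [Ruminococcus] stood out in WT-ND SI replicate 5 (0.0423%) and KO-WD LI replicate 5 (1.61%), and Dorea in KO-ND LI replicate 8 (0.0242%) and KO-WD LI replicate 1 (0.136%).

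The difference between LI and SI was larger in KO-WD mice than in another group, by edgeR's test of that difference, for these taxa. Against WT-ND mice it was larger for the family (by 4.60 on the log2 scale) and the unclassified ASVs (by 5.71). Against WT-WD mice it was larger for the family (5.62), the unclassified ASVs (6.70), [Ruminococcus] (5.51) and Dorea (7.35, with no count in the SI of KO-WD mice). What moved with these differences was not tested.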

How the results depend on the processing

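Counts of called Lachnospiraceae ASVs moved most. The share of all ASVs called is not given for these settings or for fits with 1 library less. The counts therefore show only how the calls depend on the processing. With no filter on low values they became, for KO-ND against WT-ND, 24 in the SI and 74 in the LI, for KO-WD against KO-ND 26 and 55, for KO-WD against WT-WD 60 and 74, for KO-WD against WT-ND 31 and 68, and for WT-WD against WT-ND 0 in the LI. With all 4 groups in 1 fit they became, in the same order, 13 and 35, 6 in the SI, 17 and 29, 16 and 32, and 2 in the LI. With DESeq2, WT-WD against WT-ND had 1 in the SI and 3 in the LI, and with the exact rank-sum test 0 in the LI. The cause was not tested. The replicate number as a block gave 0 ASVs in the SI for KO-ND against WT-ND and for KO-WD against WT-WD, 7 in the LI for the latter, 5 in the LI for KO-WD against WT-ND and 0 in the LI for WT-WD against WT-ND. Across groups the number is only a name: correlations of same-numbered mice ran from -0.469 to 0.472 over 10 comparisons, and 8 of 64 mice were most alike to their own number. With the block, Dorea and the unclassified ASVs of KO-WD against WT-ND in the LI turned to -0.010 and 0.0098, and Roseburia of KO-WD against WT-WD to 0.19.

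For the family, KO-WD against WT-ND in the SI passed with DESeq2 (-2.77), with no filter and with all 4 groups (-3.02 each) and by the exact rank-sum test (a difference of -2.52 percentage points), as did KO-ND against WT-ND in the LI with DESeq2 (-1.40). LI against SI in KO-ND mice did not pass without the mouse block (2.20). Direction turned, without a call, for KO-ND against WT-ND in the SI (0.52 with TMM), KO-WD against WT-ND in the LI (-0.26 with TMM, -0.28 with DESeq2) and the LI interaction (0.46 with TMM). Among genera it turned for Coprococcus (0.16), the unclassified ASVs (0.19) with TMM and [Ruminococcus] (-0.025) with DESeq2 in KO-WD against WT-ND in the LI, for Dorea in WT-WD against WT-ND in the SI (-0.42 with DESeq2), for the unclassified ASVs of that comparison in the LI (-0.28 with TMM, -0.21 with DESeq2), and for [Ruminococcus] in LI against SI (WT-ND -0.53 without the mouse block and -0.055 with TMM, WT-WD 0.13 with TMM).

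Leaving out 1 library at a time gave 2 to 7 called ASVs for KO-ND against WT-ND, 0 to 1 for KO-WD against KO-ND, 3 to 9 for KO-WD against WT-ND and 0 to 2 for WT-WD against WT-ND in the SI, and 0 to 1 for the last in the LI. The family ran from -4.70 to -2.66 (SI) and -0.11 to 0.18 (LI) for KO-WD against WT-ND, and from -0.41 to 0.096 for the LI interaction. Its difference between sites ran from 2.36 to 3.35 against KO-ND and 4.11 to 5.11 against WT-ND. Richness ran from -14.03 to -10.63 for KO-WD against WT-ND in the SI and -0.80 to 6.00 for WT-WD against WT-ND in the LI. In the LI, Coprococcus ran from -0.050 to 1.20 (KO-WD against KO-ND) and -0.79 to 0.26 (KO-WD against WT-ND), Dorea from -0.93 to 1.54 (KO-WD against WT-ND) and -2.13 to 0.36 (KO-WD against WT-WD), Roseburia from -1.60 to 0.20 (KO-WD against WT-WD) and the unclassified ASVs from -0.23 to 0.087 (KO-WD against WT-ND). The unclassified ASVs ran from -3.30 to 0.19 in the SI (KO-WD against KO-ND), and [Ruminococcus] from -0.35 to 0.89 for LI against SI in WT-ND mice. Depth limits the SI of KO-WD mice most, where a median library held 0.0539% Lachnospiraceae.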
